A study of Mus musculus with 16 samples.

Results

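Glutathione S-transferases (GSTs) join the tripeptide glutathione to electrophilic compounds, and the cytosolic enzymes fall into classes by sequence. The genes described here are the 10 mouse genes of the mu, pi and theta classes whose symbols are Gstm1, Gstm2, Gstm3, Gstm4, Gstm6, Gstm7, Gstp1, Gstt1, Gstt2 and Gstt3. They were taken by symbol from the 18209 genes with an identifier in the table, as 6 mu class, 1 pi class and 3 theta class genes. All 10 passed the filter on low values, and a single library held between 84 and 63331 reads of each.

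Liver RNA was sequenced from 16 mice, male by their labels and 20 days old, with 4 mice in each of 4 genotypes. All 16 mice carry floxed alleles (fl/fl) of Trsp, the gene of the selenocysteine tRNA without which selenoproteins are not made. Trsp fl/fl mice have no Cre and served as control. In Trsp fl/fl::AlbCre mice the albumin promoter drives Cre in hepatocytes, and the study describes the deletion of Trsp as hepatocyte-specific. Mice of the genotype Keap1 C226S&C613S homo::Trsp fl/fl, called Keap1 mutant below, carry 2 serine substitutions, C226S and C613S, on both Keap1 alleles in every cell. Mice of the genotype Keap1 C226S&C613S homo::Trsp fl/fl::AlbCre, called compound mutant below, carry those substitutions and AlbCre. The whole liver was extracted, so fewer cells of a type and less RNA per cell cannot be told apart.

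KEAP1 holds the transcription factor NRF2 for degradation under resting conditions, and oxidants or electrophiles that modify KEAP1 cysteines let NRF2 accumulate. NRF2, with a small MAF partner, binds antioxidant response elements and raises genes of glutathione conjugation, NAD(P)H supply and drug export. Several mu and pi class GST genes are long known as genes that NRF2 raises in mouse liver. The study asked whether the cysteines at the 2 substituted positions are needed for the response of the liver to the loss of selenoproteins.

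Recovered reads per library ranged from 11386721 to 19164140, with a median of 15509642. Normalized counts are reads divided by the size factor of their library, and limma was applied to the log2 of these counts plus 4. Called genes had a log2 fold change above 1 or below -1 together with an adjusted p (Benjamini-Hochberg, 15781 genes) under 0.01. The Trsp transcript itself was not analysed here. Replicate 1 of the compound mutant stood apart from the other 15 libraries. It had 28799 reads of Xist, the RNA of the inactive X chromosome in females, against 22 to 50 in the others. Its 8 erythroid markers summed to 96476 normalized counts, against 12859 to 64695 in the others. Its 8 hepatocyte markers summed to 987606, the lowest of all libraries. Where the compound mutant is compared, each fold change of the 10 genes and each count of them called at these limits is given with and without this library. Group overlaps, counts at other p limits and the alternative settings keep it, apart from the fits that leave out single libraries.

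In the control liver, Gstm1 had the highest level of the 10 genes per length of transcript. Its median normalized count per kilobase was 12081, with the length taken from the longest protein-coding transcript in GENCODE M21. Gstp1 followed at 3887 per kilobase, Gstt1 at 2568, Gstm3 at 938 and Gstm2 at 769. Gstm7, Gstt3 and Gstm6 lay between 490 and 558 per kilobase, Gstm4 at 265 and Gstt2 at 164. In Trsp fl/fl::AlbCre liver the order at the top was Gstm1 at 47524, Gstp1 at 17006 and Gstm3 at 6906 per kilobase. In compound mutant liver Gstm3 stood last, at 110 per kilobase, while Gstm1 at 4924 and Gstp1 at 3880 still led.

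Summed over the 10 genes, normalized counts ran from 23218 to 30262 in control liver and from 88994 to 97995 in Trsp fl/fl::AlbCre liver. They ran from 11049 to 13920 in Keap1 mutant and from 9505 to 22972 in compound mutant liver. No library of Trsp fl/fl::AlbCre mice came near those of the other 3 genotypes. The 10 genes took 0.578% to 0.649% of all reads in Trsp fl/fl::AlbCre liver, against 0.151% to 0.196% in control liver. Gstm1 alone made up 59.3% to 66.3% of the summed counts in Trsp fl/fl::AlbCre liver and 42.0% to 44.9% in Keap1 mutant liver.

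**Figure D1:**
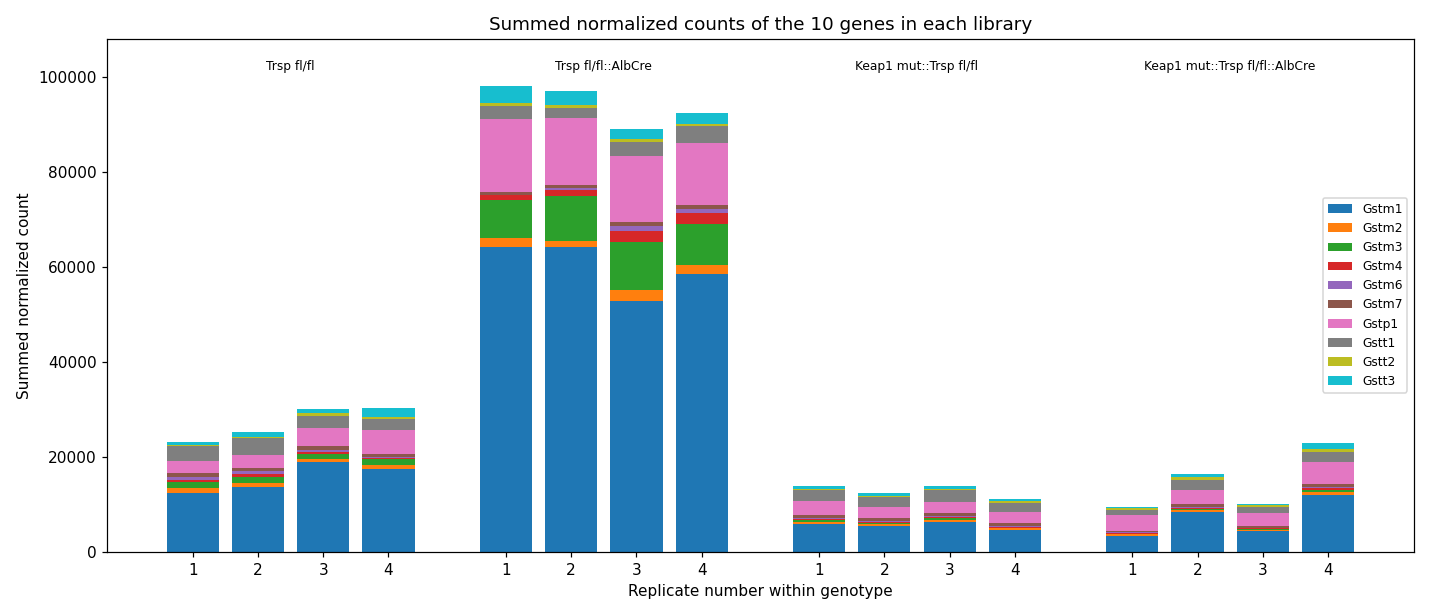
Summed normalized counts (vertical axis) of the 10 genes in each of the 16 libraries, grouped by genotype with the replicate number below each bar and 1 colour per gene; Keap1 mut stands for Keap1 C226S&C613S homo. The 4 Trsp fl/fl::AlbCre bars reach 88994 to 97995, and no bar of another genotype exceeds 30262.

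The first comparison asked what the loss of selenoproteins in hepatocytes does where KEAP1 is unaltered. In Trsp fl/fl::AlbCre against Trsp fl/fl liver, 3 of the 10 genes were called higher, namely Gstm1, Gstm3 and Gstp1, and none was called lower. The background over the whole table was 0.19% of genes called higher and 0.0253% called lower. Groups did not overlap for 6 of the 10 genes, all higher after deletion, where 3.4% of all genes were higher without overlap. Their median log2 fold change was 1.24, against -0.01 over all genes. None of the 8 erythroid markers was called, but all 8 had negative log2 fold changes with a median of -1.20, and their part in the results was not tested. The hepatocyte marker sums were 1733154 to 2034343 in control and 1720375 to 2090183 in Trsp fl/fl::AlbCre liver.

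The mu class genes lie side by side on chromosome 3, in the order Gstm5, Gstm7, Gstm6, Gstm3, Gstm2, Gstm1 and Gstm4 in GENCODE M21. Their enzymes conjugate epoxides, quinones and products of lipid peroxidation. Gstm1 (ENSMUSG00000058135), the main mu class transferase of mouse liver, had 12367, 13685, 18918 and 17461 normalized counts in the 4 control libraries. It had 64108, 64246, 52739 and 58409 in the 4 Trsp fl/fl::AlbCre libraries. Every deleted library thus exceeded every control library, and the 2 groups were far apart. The log2 values were 13.91 ± 0.29 and 15.87 ± 0.14 (SD, n = 4 each), a 3.88-fold rise (log2 fold change 1.96, standard error SE 0.29, adjusted p = 0.0033 by limma). Leaving out any 1 of Trsp fl/fl replicates 1 and 2 or Trsp fl/fl::AlbCre replicates 1, 2 and 4 moved the log2 fold change to between 1.85 and 1.97 and the adjusted p of limma to between 0.012 and 0.018, just past the threshold.

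Gstm3 (ENSMUSG00000004038) encodes another mu class enzyme and showed the largest rise of the 10 genes. Its counts were 1300, 1273, 1061 and 1185 in control liver. They were 8116, 9401, 10134 and 8706 in Trsp fl/fl::AlbCre liver. Both groups were tight, and the lowest deleted library was far above the highest control. The rise was 7.52-fold (log2 fold change 2.91, SE 0.41, adjusted p = 0.0016 by limma). Gstm3 made up 4.75% to 7.85% of the mu class counts in control liver and 10.7% to 14.6% in Trsp fl/fl::AlbCre liver.

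Transcripts of Gstm1 and Gstm3 share sequence, which may bear on how reads were divided between them. Of the 31-base words in Gstm1 transcripts of GENCODE M21, 28.8% also occur in another gene, 22.6% in the pseudogene Gstm2-ps1 and a smaller part in Gstm3. For Gstm3 it is 37.7%, including 15.2% shared with Gstm1 and 24.7% with the predicted gene Gm8834. The transcripts of both genes thus share runs of at least 31 bases. A stretch near the annotated start of each gene is also shown. In capitals is the longest unbroken run, 16 bases, common to their RefSeq windows from 250 bases before to 50 bases after the start. The stretches are on the minus strand of GRCm38.p6 at chr3:108017777-108017806 for Gstm1 and chr3:107969142-107969171 for Gstm3.
Gstm1: gccagttTGAGAAGACCACAGCAccagcac
Gstm3: gccagtcTGAGAAGACCACAGCAtcagcgc
A read pair that lies wholly within sequence common to both genes cannot be assigned by sequence to 1 of them. Whether the shared runs reach the length of a read was not examined, so any effect on the counts of these 2 genes was not tested. The study's RT-qPCR assay for Gstm1 is printed here to show which transcripts its oligos match exactly.
Forward primer: cctatgatactgggatactggaacg
Reverse primer: ggagcgtcacccatggtg
Probe: cgcggactgacacacccgatcc
Over their full length, the reverse primer and the probe matched Gstm1 transcripts alone among all GENCODE M21 transcripts, and the forward primer matched Gstm1 and Gstm2-ps1. Imperfect matches were not searched, so the specificity of the assay was not tested.

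Gstm4 and Gstm2 encode 2 further mu class enzymes and had higher means after deletion that did not pass the threshold. Gstm4 (ENSMUSG00000027890) had 531, 614, 374 and 312 counts in control liver and 958, 1256, 2425 and 2331 in Trsp fl/fl::AlbCre liver. Its groups did not overlap, although within the deleted group replicates 3 and 4 were well above replicates 1 and 2. Its mean log2 difference was 1.86 (SE 0.32, adjusted p = 0.0115 by limma), and it was called with limma voom and without Trsp fl/fl::AlbCre replicate 1 (2.11) or compound mutant replicate 4. Gstm2 (ENSMUSG00000040562) had 989, 808, 622 and 829 counts in control and 1908, 1252, 2356 and 1892 in Trsp fl/fl::AlbCre liver. These groups did not overlap either, and the log2 fold change was 1.17 (SE 0.24, adjusted p = 0.042 by limma). At an adjusted p under 0.05 the count was 5 of 10 genes, with Gstm4 and Gstm2 added to those called. With the fold limit kept, 50 of all 15781 genes were then called higher.

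Gstm6 and Gstm7 showed no difference in means. Gstm6 (ENSMUSG00000068762) ranged from 213 to 600 counts in control and from 146 to 918 in Trsp fl/fl::AlbCre liver, the widest spread of all genes and genotypes (SD of 1.22 on the log2 scale). Its log2 fold change was 0.05 with a 95% interval of -1.04 to 1.13, so that neither a doubling nor a halving lies outside it. Gstm7 (ENSMUSG00000004035) ranged from 609 to 792 and from 476 to 870, with a log2 fold change of -0.10 and an interval of -0.54 to 0.35.

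Gstp1 (ENSMUSG00000060803) is the pi class member and lies on chromosome 19 beside Gstp2 and Gstp3. Pi class enzymes conjugate acrolein and other alkenals and also take part in the glutathionylation of proteins. Gstp1 had 2497, 2583, 3799 and 5111 normalized counts in control liver and 15372, 14022, 13902 and 13096 in Trsp fl/fl::AlbCre liver. The deleted libraries lay close together, far above the highest control, which was replicate 4. The rise was 4.20-fold (log2 fold change 2.07, SE 0.20, adjusted p = 5.9e-05 by limma), with the smallest p of the 10 genes. All 38.5% of the Gstp1 words of 31 bases that occur elsewhere occur in Gstp2, and any effect on the split of reads between the pair was not tested. Of 3 other mu and pi class genes tested, Gstp2 was called higher as well, with a log2 fold change of 2.18 (adjusted p = 0.00061 by limma).

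RefSeq promoter windows, from 250 bases before to 50 bases after each annotated start, were found for 9 of the 10 genes, in 15 windows. They were searched on both strands for TGAGTCAGC and TGACTCAGC, forms of the antioxidant response element that also hold an AP-1 site, and for its short core TGACNNNGC, in which TGACTCAGC is contained. In 7 of these 9 genes no window held any of the 3. Gstp1 had TGAGTCAGC, which stands in 0.414% of all 32851 windows, starting 74 bases before its start. Gstm7 had TGACNNNGC, present in 12.4% of all windows, starting 129 bases before the second of its starts. TGACTCAGC stands in 0.454% of all windows and in none of these genes. The 150 bases before the start are shown for Gstp1 and its neighbour Gstp2 because both genes were called and both carry the same motif, in capitals. They are on the minus strand of GRCm38.p6 at chr19:4037913-4038062 and chr19:4042222-4042371.
Gstp1: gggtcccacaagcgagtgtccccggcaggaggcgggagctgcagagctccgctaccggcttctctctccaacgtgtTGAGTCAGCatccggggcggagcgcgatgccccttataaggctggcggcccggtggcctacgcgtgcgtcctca
Gstp2: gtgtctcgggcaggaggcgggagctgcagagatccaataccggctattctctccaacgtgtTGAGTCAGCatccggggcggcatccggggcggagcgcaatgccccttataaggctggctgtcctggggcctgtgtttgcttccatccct
The longest run that both stretches share is 34 bases long and contains the motif, which starts 89 bases before the Gstp2 start. The match describes these letters and is not a measured binding site.

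The theta class genes lie on chromosome 10, in the order Gstt3, Gstt1, Gstt4 and Gstt2, and their enzymes act on small halogenated compounds and on peroxides. Gstt3 (ENSMUSG00000001665) had 747, 995, 899 and 1802 counts in control liver and 3538, 2800, 2175 and 2154 in Trsp fl/fl::AlbCre liver. The groups did not overlap, and the highest control, replicate 4, was close to the lowest deleted libraries. The difference of 1.31 on the log2 scale did not pass (SE 0.41, adjusted p = 0.22 by limma). Of the Gstt3 words of 31 bases, 12.8% also occur in Gm20441, a gene model on the same strand that overlaps it.

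Gstt1 (ENSMUSG00000001663) was level, with 2329 to 3591 counts in control and 2221 to 3491 in Trsp fl/fl::AlbCre liver. Its log2 fold change was -0.01, with a 95% interval of -0.47 to 0.44. Gstt2 (ENSMUSG00000033318) ranged from 240 to 577 and from 496 to 667, so the groups overlapped. Its log2 fold change was 0.64 (adjusted p = 0.36 by limma).

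**Figure D2:**
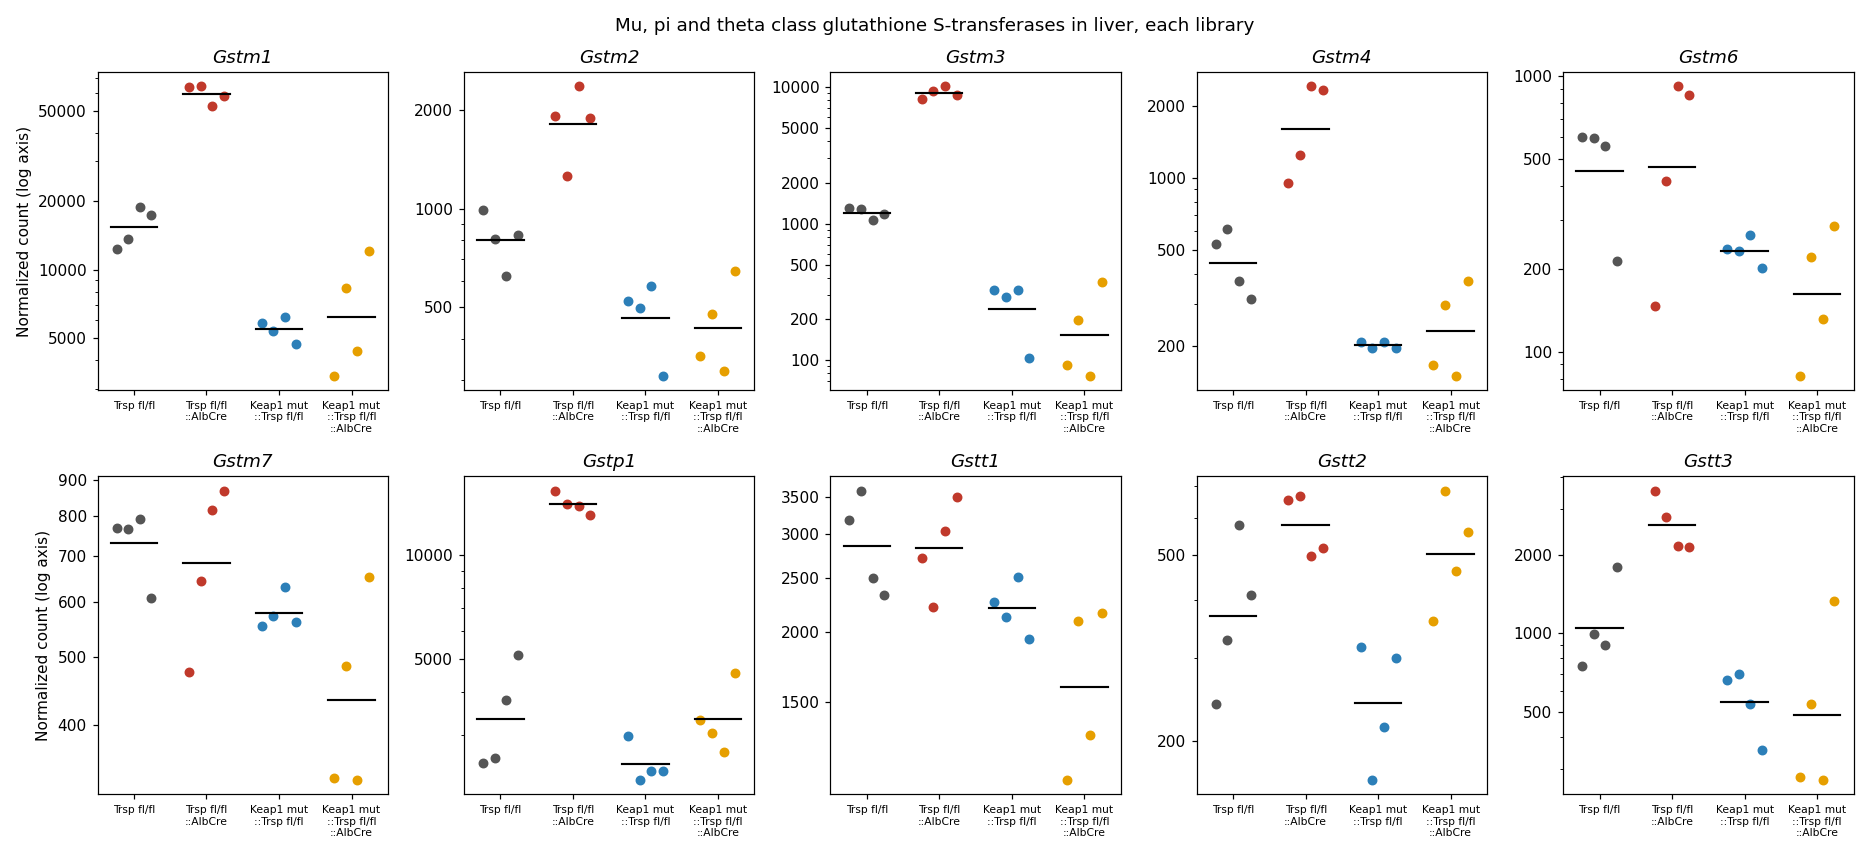
Normalized counts (vertical log axis, its own range in each panel) of the 10 genes in every library, with 1 point per mouse in the order of the replicate numbers, a bar at the mean of the log2 values, and the 4 genotypes from left to right; Keap1 mut stands for Keap1 C226S&C613S homo. Gstm1, Gstm3 and Gstp1 stand high in Trsp fl/fl::AlbCre liver alone (52739 to 64246, 8116 to 10134 and 13096 to 15372 counts), whereas Gstt1 and Gstm7 overlap between both Trsp fl/fl genotypes with unaltered Keap1.

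The same deletion was then compared on the Keap1 mutant background, to ask whether the rise also occurs there. In compound mutant against Keap1 mutant liver none of the 10 genes was called by limma, in either direction, and none by limma voom on recovered reads. At an unadjusted p under 0.05 there were 2, Gstt2 with a higher and Gstt1 with a lower mean, beside 2146 of all 15781 genes. Over all genes, 0.0697% were called higher and 0.101% lower. The median log2 fold change of all genes was -0.0049. That of the 10 genes was -0.14, and 0.04 without replicate 1, where again none of the 10 was called. Of the markers, 9 of 10 pericentral hepatocyte genes had negative log2 fold changes, with a median of -0.83 and none called. Their sums were 95246 to 149798 in Keap1 mutant and 36528 to 94113 in compound mutant liver, without overlap. All 8 erythroid markers had positive values with a median of 0.76 and none called, and 5 of 8 with a median of 0.15 without replicate 1. The part of either list in the values below was not tested. Only Gstt2 had groups that did not overlap, higher in compound mutant liver, where 3.97% of all genes were higher without overlap.

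Gstm1 had 5849, 5357, 6225 and 4705 counts in Keap1 mutant liver and 3421, 8305, 4389 and 12044 in compound mutant liver. The compound mutant libraries lay on both sides of the Keap1 mutant group, replicates 1 and 3 below it and replicates 2 and 4 above it. The log2 fold change was 0.18 with a 95% interval of -0.45 to 0.80, and it was 0.47 without compound mutant replicate 1 (adjusted p = 0.56 by limma). Even the highest Gstm1 value of that genotype, at 12044, was below the lowest control library, at 12367.

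Gstm3 was, of the 3 genes called in the first comparison, the one with a lower mean after deletion on the Keap1 mutant background. It had 324, 288, 326 and 103 counts in Keap1 mutant liver and 92, 195, 77 and 376 in compound mutant liver. The groups overlapped, and the log2 fold change was -0.63 with an interval of -1.50 to 0.24. Without compound mutant replicate 1 it was -0.40 (adjusted p = 0.81 by limma).

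Gstp1 had 2978, 2228, 2367 and 2368 counts in Keap1 mutant liver and 3323, 3048, 2689 and 4543 in compound mutant liver. Of the 4 compound mutant libraries, 3 exceeded every Keap1 mutant library, and replicate 3 did not. On the log2 scale the difference was 0.43 with an interval of -0.0018 to 0.87 (adjusted p = 0.37 by limma), and 0.43 without replicate 1. Gstm4 and Gstm2 had log2 fold changes of 0.18 and -0.10, with 95% intervals of -0.50 to 0.87 and -0.62 to 0.42. Without replicate 1 they were 0.34 and -0.01.

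Gstt2, a theta class enzyme active on sulfate esters, had 318, 165, 214 and 300 counts in Keap1 mutant liver. It had 361, 685, 461 and 559 in compound mutant liver, and each of these was above the Keap1 mutant group. On the log2 scale Gstt2 differed by 1.05 (SE 0.26, adjusted p = 0.078 by limma), and 1.21 without replicate 1 (adjusted p = 0.079 by limma). Gstt3 and Gstt1 had log2 fold changes of -0.17 and -0.47, and Gstt3 turned to 0.09 without replicate 1. Gstm6 and Gstm7 had -0.51 and -0.42, and neither passed the test. Without replicate 1, Gstt1 had -0.28, Gstm6 -0.20 and Gstm7 -0.29.

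The difference between both deletion effects was tested as an interaction, which is the effect on the Keap1 mutant background minus the effect with unaltered Keap1. None of the 10 genes was called by limma or by limma voom, and none was called without replicate 1. An unadjusted p under 0.05 was found for 6 of them, and for 1697 of all 15781 genes. Over all genes, 0.0317% were called with a positive and 0.0253% with a negative difference. Of the 10 differences 9 were negative, and the exception was Gstt2 at 0.41. All 8 erythroid markers had positive differences, with a median of 1.94, or 1.34 without replicate 1, and none called, and their part in these values was not tested. Gstm3 and Gstp1 were under an adjusted p of 0.05. The difference was -3.54 for Gstm3 (SE 0.58, adjusted p = 0.022 by limma) and -1.64 for Gstp1 (SE 0.29, adjusted p = 0.041 by limma). Without compound mutant replicate 1 they were -3.31 (adjusted p = 0.052 by limma) and -1.64 (adjusted p = 0.084 by limma). Gstm1 had a difference of -1.78 (SE 0.42, adjusted p = 0.20 by limma), and Gstm4 had -1.68 (adjusted p = 0.27 by limma). These were -1.49 and -1.52 without replicate 1. Gstt3 had -1.48 and Gstm2 had -1.27, while Gstm6, Gstt1 and Gstm7 lay between -0.56 and -0.32. Without replicate 1, Gstt3 had -1.22, Gstm2 had -1.18, Gstt2 had 0.57, and Gstm6, Gstt1 and Gstm7 lay between -0.27 and -0.20.

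**Figure D3:**
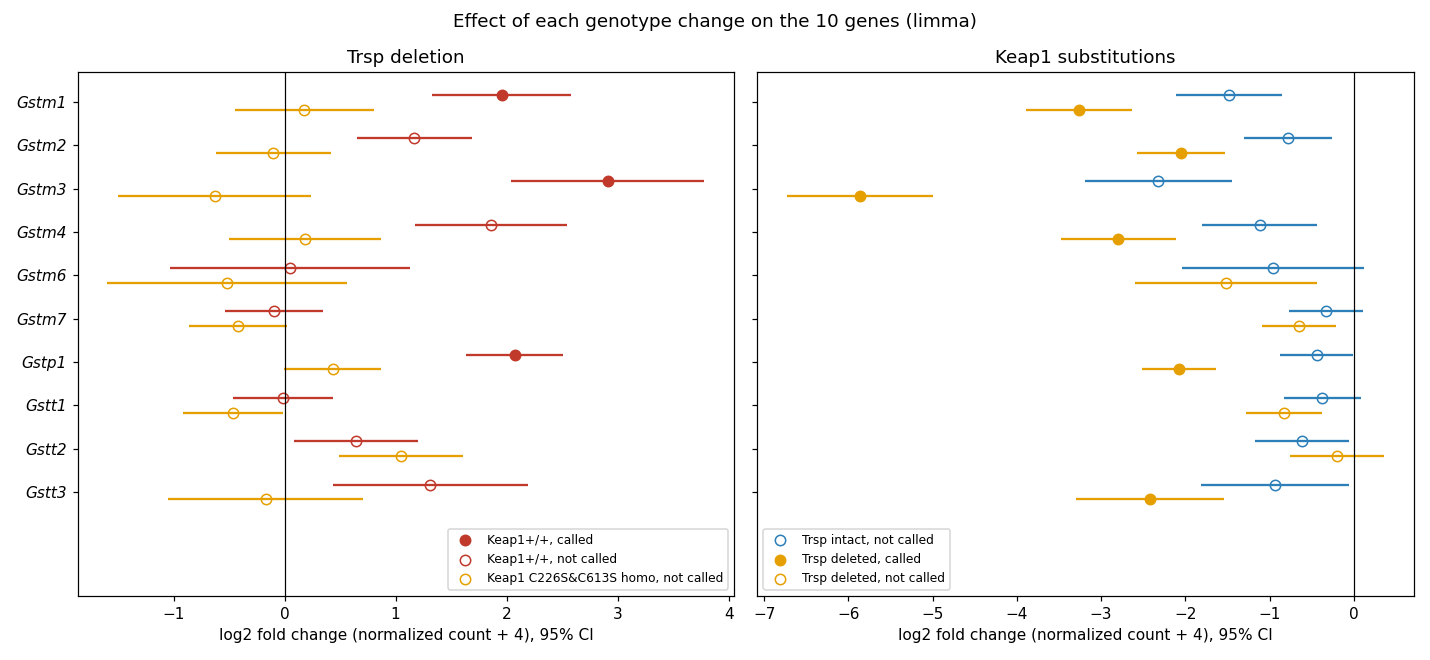
Log2 fold changes of normalized count + 4 (horizontal axis) for each of the 10 genes, as estimates with 95% confidence intervals from limma, filled where called and open where not. The left panel sets Trsp deletion with unaltered Keap1 (1.96 for Gstm1, 2.91 for Gstm3, 2.07 for Gstp1) beside the same deletion in the Keap1 mutant (0.18, -0.63 and 0.43), and the right panel sets the Keap1 substitutions with Trsp intact beside those with Trsp deleted.

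The third comparison asked what the substitutions do to the resting level, with Trsp intact. In Keap1 mutant against Trsp fl/fl liver all 10 genes had negative log2 fold changes, with a median of -0.86 against -0.01 over all genes. None was called by limma or by limma voom, and 7 had an unadjusted p under 0.05, as had 1431 of all 15781 genes. Over all genes, 0.00634% were called higher and 0.00634% lower, which is 1 gene each. Groups did not overlap for Gstm1, Gstm2, Gstm3, Gstm4 and Gstt3, all lower in Keap1 mutant liver, where 3.04% of all genes were lower without overlap.

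The lowest ratio was that of Gstm3. Its 4 Keap1 mutant libraries held 103 to 326 counts, against 1061 to 1300 in control, and replicate 4 was the lowest at 103. The mean difference was -2.32 on the log2 scale (SE 0.41, adjusted p = 0.047 by limma). Gstm1 had a median of 15573 counts in control and 5603 in Keap1 mutant liver, with a log2 fold change of -1.48 (SE 0.29, adjusted p = 0.084 by limma). These p-values also rest on the spread in groups outside the comparison. Without compound mutant replicate 1, the adjusted p of limma was 0.032 for Gstm3 and 0.029 for Gstm1. Leaving out any single library gave 0.012 to 0.14 for Gstm3 and 0.018 to 0.27 for Gstm1. Gstm4 spanned 196 to 208 counts in Keap1 mutant liver, the narrowest group of all, and its log2 fold change was -1.12 (adjusted p = 0.27 by limma). Gstm2 and Gstt3 had -0.78 and -0.94, with limma adjusted p of 0.31 and 0.52. Gstm6 at -0.95, Gstt2 at -0.61, Gstp1 at -0.44, Gstt1 at -0.37 and Gstm7 at -0.33 overlapped with control. Among the markers of other cells, the 7 B cell markers had a median log2 fold change of 1.48 with none called. Their sum was 133 to 224 counts in control and 340 to 737 in Keap1 mutant liver. All 8 erythroid markers had negative log2 fold changes, with a median of -1.34 and none called. Erythroid sums were 33854 to 64695 counts in control and 12859 to 25545 in Keap1 mutant liver, without overlap. The part of either list in these results was not tested.

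In the fourth comparison, compound mutant and Trsp fl/fl::AlbCre livers both lack Trsp in hepatocytes and differ in Keap1. Of the 10 genes, 6 were called lower with the substitutions and none higher, against 0.456% of all genes called lower and 0.114% called higher. Their median log2 fold change was -2.06, and -2.02 without replicate 1, against 0.01 over all genes. Of the markers, 8 of 10 pericentral hepatocyte genes had negative log2 fold changes with a median of -0.67 and none called, and these sums were 79148 to 180061 in Trsp fl/fl::AlbCre and 36528 to 94113 in compound mutant liver. The 7 B cell markers summed to 127 to 196 and 260 to 573 counts in the same order, with none called, and the part of either list was not tested. Groups did not overlap for 7 of the 10 genes, all lower, where 4.08% of all genes were lower without overlap. Of the 6 genes called lower, 5 held without compound mutant replicate 1, and Gstt3 was lost. Of all 15781 genes, 48 were then called lower and 10 higher, against 72 and 18 with all libraries. This comparison uses the Trsp fl/fl::AlbCre libraries of the first and the compound mutant libraries of the second, so the 3 are not independent.

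Gstm3 was lowest of all, with 92, 195, 77 and 376 counts in compound mutant liver against 8116 to 10134 in Trsp fl/fl::AlbCre liver. Even its highest compound mutant library was far under the other group. This was a log2 fold change of -5.86 (SE 0.41, adjusted p = 4.4e-07 by limma), and -5.63 without replicate 1. Gstm1, at 3421 to 12044 against 52739 to 64246 counts, had -3.26 (SE 0.29, adjusted p = 1.1e-05 by limma), and -2.97 without replicate 1. Gstp1, at 2689 to 4543 against 13096 to 15372 counts, had -2.08 (SE 0.20, adjusted p = 3.3e-05 by limma), and -2.07 without replicate 1.

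Gstm4 and Gstm2, which missed the threshold in the first comparison, were called here. Gstm4 had 166, 297, 150 and 372 counts in compound mutant liver, against 958 to 2425 in Trsp fl/fl::AlbCre liver. Its log2 fold change was -2.79 (SE 0.32, adjusted p = 0.00014 by limma), and -2.64 without replicate 1. Gstm2 had 356, 476, 320 and 646 counts, against 1252 to 2356, and its log2 fold change was -2.05 (SE 0.24, adjusted p = 2.0e-04 by limma), and -1.96 without replicate 1.

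Gstt3 had 281, 535, 273 and 1327 counts in compound mutant liver, against 2154 to 3538 in Trsp fl/fl::AlbCre liver. Replicate 4 of the compound mutant stood well above the other 3 libraries and was still below the other group. Its log2 fold change of -2.42 passed (SE 0.41, adjusted p = 0.0053 by limma). Without replicate 1 it was -2.16 (adjusted p = 0.023 by limma), so the call was lost, as it was without any 1 of the 4 Trsp fl/fl::AlbCre libraries or without compound mutant replicate 2 or 3 (-2.51 to -2.15). Gstt1 did not overlap either, at 1088 to 2167 against 2221 to 3491 counts, but its log2 fold change of -0.82 did not pass (adjusted p = 0.059 by limma). Gstm6 had -1.51 (adjusted p = 0.14 by limma), Gstm7 had -0.65 (adjusted p = 0.12 by limma) and Gstt2 had -0.20 (adjusted p = 0.73 by limma). Without replicate 1, Gstt1 had -0.64, Gstm6 -1.20, Gstm7 -0.53 and Gstt2 -0.04.

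Within the compound mutant group most or all of the 10 genes lay on the same side of their genotype mean in each mouse. The share of all genes that did so was not examined. In replicates 1 and 3 all 10 lay below the genotype mean, Gstp1 in replicate 1 by only 0.0054, with median deviations of -0.51 and -0.41 on the log2 scale. In replicate 4 all 10 lay above it, with a median deviation of 0.64 and a maximum of 1.45 in Gstt3, and in replicate 2, 9 of 10 did. In the 8 libraries with unaltered Keap1, at most 6 genes lay on 1 side of their genotype mean, and in those of the Keap1 mutant at most 9 did. The hepatocyte marker sums were 987606, 1715606, 1351154 and 1906688 in compound mutant replicates 1 to 4, lower in the same replicates 1 and 3, and the 10 periportal markers summed to 64589, 127498, 89128 and 195614. Of the hepatocyte and periportal markers none was called in any comparison. When counts were scaled to the hepatocyte marker sum of each library, an alternative chosen after seeing the data, the same 6 genes were called lower in the fourth comparison, with log2 fold changes from -5.52 in Gstm3 to -1.70 in Gstm2. That scaling moved the median of all genes in this comparison to 0.34 and called 47 of all 15874 genes lower.

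**Figure D4:**
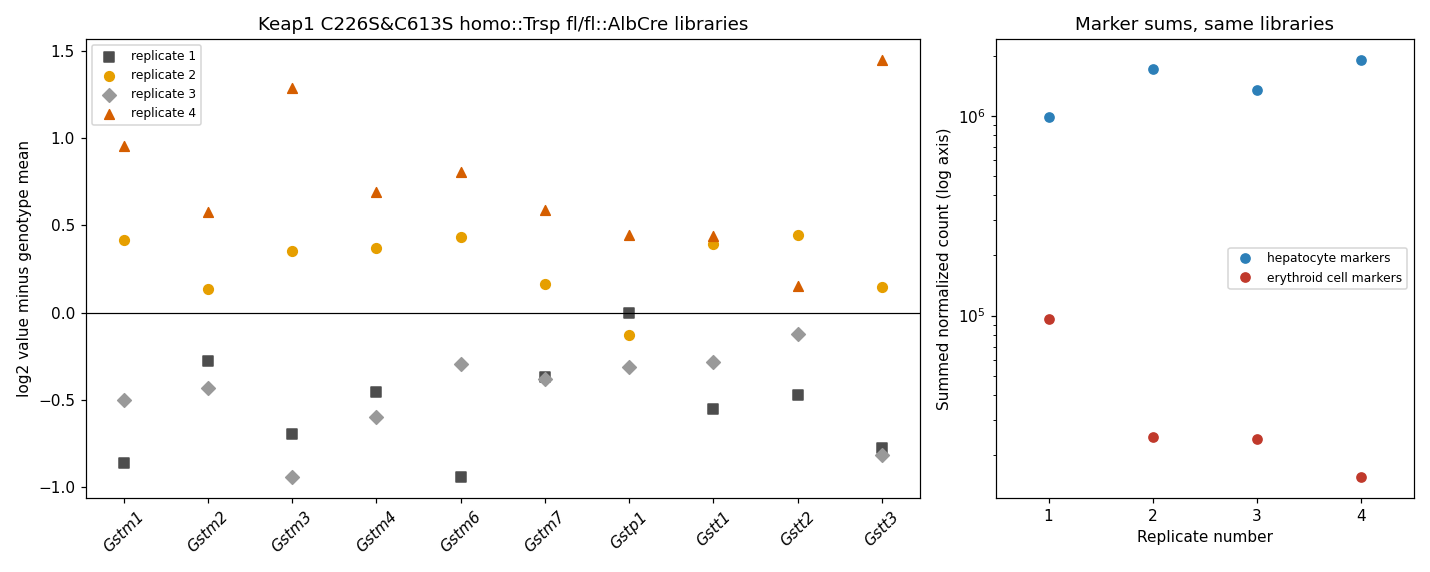
Left, the log2 value of each of the 10 genes in the 4 compound mutant libraries minus its mean over them, with 1 symbol per replicate; right, the summed normalized counts (log axis) of 8 hepatocyte and 8 erythroid markers in the same libraries. All 10 genes lie below 0 in replicates 1 and 3, where hepatocyte markers sum to 987606 and 1351154, and all 10 lie above 0 in replicate 4, where they sum to 1906688.

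Other genes of glutathione conjugation were read from fixed lists. Of 11 other glutathione transferases tested, 2 were called higher in Trsp fl/fl::AlbCre than in control liver. They were the alpha class genes Gsta1, with a log2 fold change of 7.09 (adjusted p = 2.7e-08 by limma), and Gsta2, with 3.61 (adjusted p = 0.00032 by limma). Gsta2 was also called higher on the Keap1 mutant background, at 3.19 (adjusted p = 0.0021 by limma), where no mu, pi or theta gene was called, and without replicate 1 at 3.39 (adjusted p = 0.0028 by limma). In the fourth comparison 4 were called lower, Gsta1 at -5.97, Gsta4 at -1.53, and the microsomal Mgst3 at -1.31 and Mgst1 at -1.20. The same 4 were called without replicate 1, at -6.07, -1.31, -1.22 and -1.12. The median log2 fold changes of the 11 genes were 0.46, 0.08, -0.47 and -1.20 in the order of the 4 comparisons. In the interaction Gsta1 was called, at -5.21 (adjusted p = 7.2e-05 by limma), and at -5.30 without replicate 1.

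Glutathione supply, the enzymes and carriers that make and restore glutathione, had 0 of 11 genes called by limma in each of the 5 tests. At an unadjusted p under 0.05 there were 4, 4, 1, 4 and 2 genes, in the order of the comparisons with the interaction last. Of all 15781 genes, 1741, 2146, 1431, 2777 and 1697 were under this limit, in the same order. Of the 17 genes of conjugate export and mercapturate formation, 1 was called higher in the first comparison. This was Abcc4, an exporter of organic anions, at 2.42 (adjusted p = 5.1e-05 by limma). In the fourth comparison 3 were called lower, the exporters Abcc3 at -2.31, Abcc4 at -2.01 and Abcg2 at -1.19. Without replicate 1, Abcc4 at -1.99 and Abcg2 at -1.18 were called, and Abcc3 at -2.08 was not (adjusted p = 0.014 by limma). None was called in the other 3 tests.

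Of 29 reference targets of NRF2 tested, which leave out the 10 genes but share Gsta1, Gsta2, Gsta4, Abcc3 and Abcc4 with the lists above, 12 were called higher in the first comparison. On the Keap1 mutant background 4 were called higher, Gsta2, Aox1, Ugdh and Pir. With Trsp intact 1 was called lower in the Keap1 mutant, and with Trsp deleted 15 were called lower in the compound mutant. Without replicate 1 these counts were 3 on the Keap1 mutant background, where Ugdh and Aox1 were lost and Ephx1 was gained, and 10 with Trsp deleted. With all libraries, the 29 targets had median log2 fold changes of 1.16, 0.35, -0.52 and -1.27. Nqo1, the quinone reductase used as a measure of NRF2 activity, had log2 fold changes of 2.27, 1.13, -1.82 and -2.96, of which the second did not pass (adjusted p = 0.017 by limma). Of 16 regulators none was called by limma in any of the 5 tests, and 4, 4, 0, 4 and 3 had an unadjusted p under 0.05. The counts over all genes in these tests are those given with glutathione supply. Keap1 itself had log2 fold changes between -0.23 and 0.10 in the 4 comparisons, and Nfe2l2, the gene of NRF2, between -0.50 and 0.25.

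The genes most alike in pattern were found by the root mean square difference of log2 values over the 16 libraries, each gene centred on its own mean, where 0 would be an identical pattern. For Gstm1 they were Gstm4 at 0.52, Gstt3 at 0.54, Nqo1 at 0.59, Ugt2b35 at 0.59 and Ugt1a6a at 0.60. For Gstp1 they were Gstp2 at 0.36, Cbr1 at 0.36, Htatip2 at 0.37, Abcc4 at 0.39 and Srxn1 at 0.44. Gstm2 was nearest to Cyp7b1, Ugt2b35, Ugt1a6a, Cbr1 and Plscr2, from 0.28 to 0.42. Gstm4 was nearest to Gstm2, Gstm1, Ugt1a6a, Ces1e and Ugt2b35, from 0.52 to 0.59. Gstt3 was nearest to Ugt2b35, Ugt1a6a, Gstm2, 1700067K01Rik and Cbr1, from 0.40 to 0.52. Gstm3, which had the widest range of the 10 genes, was nearest to Ces1f, Gm49668, Gstm1, Ces2c and 9130409I23Rik, from 0.88 to 1.14. These distances describe the 16 libraries, which share genotypes, and were not tested.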

How the data were processed

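The authors depleted total liver RNA of ribosomal RNA, made strand-specific libraries and estimated reads per gene with Salmon on GENCODE transcripts, release 30 in the wording of their methods, followed by iDEP. Their methods name TPM, but the deposited values are log2 values of size-factor-scaled reads plus 4. Undoing this gave whole reads, within 0.05 reads, for 100% of values of up to 50 reads. The 369 rows of 18578 without a gene identifier, 0.274% to 0.627% of the reads, were left out.

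Genes whose scaled count reached 10 in 4 or more libraries entered 1 limma fit (limma 3.58.1, R 4.3.3, eBayes with trend) of all 16 libraries, with a mean for each genotype. Fold changes on this scale understate those of weakly expressed genes. The p-values test differences against 1 variance per gene, pooled over the mice of all 4 genotypes and moderated across genes. Each comparison thus also depends on the groups outside it. For Gstm3 the SD was 0.13 and 0.14 in the groups of the first comparison, and 0.78 and 1.03 in Keap1 mutant and compound mutant liver. Nothing in the labels says whether littermates were compared. The fit was tested on simulated data. All 10 genes are named in each comparison, up to 4 called genes of each list, and the 5 genes nearest in pattern to Gstm1 and to each other called gene. The 10 genes and the lists were chosen with earlier results of these data known, and the promoter motifs and printed stretches after the values were seen. The alternatives were a constant of 1 or 0.5, a count of 50 or no filter, library totals, quantile normalization, limma voom on the recovered reads, eBayes with no trend, a fit to the compared groups only, a block for the replicate number, leaving out single libraries, and an adjusted p under 0.05. Scaling to hepatocyte markers was chosen after seeing the data. Sequences come from RefSeq (GRCm38.p6), shared words from GENCODE M21 and oligos from the supplement of the study. Tables and plots used Python 3.11.15, pandas 2.3.3 and matplotlib 3.10.9.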

Additional observations from a re-analysis of the deposited data

Results flagged for a closer look

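Of 40 groups of 4 libraries, 1 per gene and genotype, 3 held a library that stood apart by Dixon's test at the 95% level, where chance gives about 1 in 20, that is 2. Gstm3 had a log2 value of 6.74 in Keap1 mutant replicate 4, while the other 3 libraries lay between 8.19 and 8.37. Gstm6 had 7.76 in Trsp fl/fl replicate 4, against 9.13 to 9.24 in the other 3. Gstm7 had 9.26 in the same Trsp fl/fl replicate 4, against 9.59 to 9.64.

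The effect of Trsp deletion differed between both Keap1 backgrounds at a limma adjusted p under 0.05 for 2 genes. The difference, Keap1 mutant background minus unaltered Keap1, was -3.54 for Gstm3 and -1.64 for Gstp1 on the log2 scale. Without compound mutant replicate 1 the limma adjusted p were 0.052 and 0.084, above that limit. The 4 Trsp fl/fl::AlbCre libraries were above every Trsp fl/fl library in both genes.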

How the results depend on the processing

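With the replicate number as a block, 1 gene (Gstp1) was called in the first comparison, where Gstm1 and Gstm3 had limma adjusted p of 0.0102 and 0.0103, and 5 in the fourth, where Gstt3 was lost. It changed no other call, and over all 15781 genes it called 28 higher in the first comparison and 62 lower in the fourth. The labels do not say whether the numbers pair the mice, and correlations of deviations from means of 4 libraries cannot decide it. Of 24 pairs of libraries with the same number 4 had a correlation over 0.1, and 2 of 16 libraries matched their own number best. Correlations ran from -0.32 to 0.31 within the same number and from -0.33 to 0.33 between other numbers. At an adjusted p under 0.05, with or without the fold limit, 5 genes were called in the first comparison, 1 (Gstm3) in the third comparison and 2 (Gstm3 and Gstp1) in the interaction. With the fold limit, 50 of all 15781 genes were called higher in the first, 7 lower in the third and 9 lower in the interaction. Without it these counts were 70, 9 and 9. Scaling to hepatocyte markers called 1 gene in the second comparison, Gstt2 at 1.60. There it called 187 of all 15874 genes higher, against 11 of 15781 in the main fit. In the third comparison it called 2, Gstm1 at -1.65 and Gstm3 at -2.49, and 10 of all genes lower, against 1 in the main fit. It moved the median of all genes by 0.54 in the second comparison, -0.16 in the third comparison, 0.33 in the fourth comparison and 0.49 in the interaction. Leaving out single libraries gave 2 to 4 calls in the first comparison, 0 in each of the following 2, 5 to 6 in the fourth and 0 to 1 in the interaction. Of all 15781 genes, these fits called 26 to 33 higher in the first, 42 to 137 lower in the fourth and 3 to 8 lower in the interaction. The 1 member called in the interaction was Gstp1 at -1.84 without Trsp fl/fl replicate 4, Gstm3 at -3.93 without Keap1 mutant replicate 4 and Gstm3 at -3.97 without compound mutant replicate 4. Gstm1 in the first comparison ranged from 1.85 to 2.06 and lost its call without Trsp fl/fl replicate 1 or 2 or Trsp fl/fl::AlbCre replicate 1, 2 or 4, with limma adjusted p up to 0.018. Gstt3 in the fourth, from -2.91 to -2.15, lost its call in 7 such fits and in the fit of only the groups compared, with adjusted p up to 0.045. Gstm4 in the first comparison was called at a count of 50, with library totals, voom and hepatocyte scaling, and without Trsp fl/fl::AlbCre replicate 1 or compound mutant replicate 4. Gstm1, Gstm2, Gstm3, Gstm4 and Gstp1 stayed called in the fourth comparison, and Gstp1 in the first, under each of the alternatives that were run.

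Changes of sign occurred only in values that were not called. With hepatocyte scaling Gstt1 was 0.030 in the first comparison, in the second Gstm2 was 0.46, Gstm6 0.033, Gstm7 0.14, Gstt1 0.094 and Gstt3 0.39, in the fourth Gstt2 was 0.145, and in the interaction Gstm7 was 0.19 and Gstt1 0.063. Gstm2 in the second comparison was 0.027 with library totals and 0.028 with voom. Without single libraries, the first comparison ranged from -0.32 to 0.60 for Gstm6, -0.21 to 0.077 for Gstm7 and -0.11 to 0.10 for Gstt1. The second ranged from -0.14 to 0.47 for Gstm1, -0.29 to 0.042 for Gstm2, -0.046 to 0.38 for Gstm4 and -0.65 to 0.10 for Gstt3. The cause of these changes was not tested. The SD of the 10 genes within a genotype had a median of 0.39 on the log2 scale and reached 1.22 in Gstm6, and a library held at least 84 reads of each gene.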

Other observations

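Gstm6 and Gstt2 were not called in any comparison, and the genes nearest to them in pattern were looked at after their values were seen. Gstm6 was nearest to Fdft1, Sc5d, Hsd17b7, H2-Q10 and Echdc1, at root mean square differences from 0.39 to 0.45. Gstt2 was nearest to Bach1, Zmat1, Tsacc, 1190005I06Rik and Sesn2, from 0.29 to 0.35. These likenesses were not tested.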
